A study of Mus musculus with 26 samples.

Results

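The nuclear genes of the mitochondrial respiratory chain and ATP synthase were followed across mouse osteosarcoma. All genes whose symbol begins with Nduf, Uqcr, Cox4 to Cox8 or Atp5 were taken from the array's annotation, with Sdha, Sdhb, Sdhc and Sdhd. These are 90 of the 18193 genes that the annotation names by 1 symbol. They comprise 36 genes filed under complex I, 8 complex I assembly factors, 4 genes of complex II, 8 of complex III, 17 of complex IV and 17 of complex V. Ndufa4 is counted with complex I by its symbol, although its protein is known to sit in complex IV. Each gene was read from its brightest kept probe set, judged by the mean of the 26 arrays. The tests used the 88 genes that reached an intensity of 52.6 on at least 3 arrays. The other two were Ndufb4, whose log2 levels lay between 4.16 and 5.75, and Cox7b2, a testis isoform of complex IV that lay at the floor of 3.64 on 18 of 26 arrays. A further 8 symbols with these prefixes, among them Ndufa11 and Ndufs6, are named only on probe sets shared with other genes and were left out.

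The respiratory chain passes electrons from NADH (complex I) and succinate (complex II) through ubiquinone and complex III to complex IV, which reduces oxygen. Complexes I, III and IV pump protons across the inner mitochondrial membrane, and complex V, the ATP synthase, uses the gradient to make ATP. Bone-forming cells and their tumours can draw ATP from both this route and glycolysis, and some complex IV subunits exist as isoforms made in muscle, lung or testis.

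Transcripts were measured on 26 arrays. The controls were 3 cultures of primary osteoblasts, the bone-forming cells, differentiated in vitro and labelled wild type. The labels describe the other samples as a mouse model of osteosarcoma: 15 primary tumours, 4 osteosarcoma cell lines grown in culture (numbers 176, 179, 182 and 213), and 4 secondary tumours. Secondary tumours 29, 64 and 94 are labelled transplants, and number 66 is tumour tissue derived from a cell line although its title calls it a cell line. The titles of the secondary tumours carry the code OPflR, which the labels do not spell out. The labels name no alleles, agents or ages for the tumour samples. Whether each osteoblast culture had its own donor animal is not labelled, so the spread between the cultures may be technical. The p-values against them rest on a spread pooled over all 4 groups, and do not measure variation between osteoblast donors. Each line is 1 culture, and lines 176, 179 and 182 and all 4 secondary tumours share a number with a primary tumour.

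Several features of the arrays move with the groups and bear on every comparison. The ratios of spiked hybridisation controls split the arrays into 3 sets. Set A held the 3 osteoblast arrays alone. Set B held the 4 secondary tumours and 7 primary tumours, and set C held the 4 lines and 8 primary tumours. Array medians ran from 44.4 to 58.8. The 5′ to 3′ ratio of the Gapdh control probe sets was 1.04 to 1.08 in the lines, 0.916 to 0.967 in osteoblasts, 0.656 to 0.845 in the primary tumours of set B and 0.909 to 1.03 in those of set C. The mean log2 level of 7 osteoblast markers was 10.98 to 11.15 in the cultures, 8.69 to 12.33 in primary tumours, 10.65 to 12.21 in secondary tumours and 7.96 to 10.26 in the lines, below all 3 cultures. In the lines 4 of the 7 were called lower than in osteoblasts, and Dmp1 and Ibsp were each at the floor in 1 line. The osteoblast cultures also carried adipocyte markers at a mean of 10.35 to 10.39, against 5.02 to 7.0 on every other array. Of 5 brown fat markers, Ucp1 lay at the floor in all 3 cultures, Cidea was near it (3.72 to 4.07), Elovl3 and Prdm16 reached 6.02 and 6.53 and Dio2 was 8.11 to 8.38, above the median of every other group. The mean of 10 macrophage markers was 8.12 to 10.28 in primary and secondary tumours and 4.58 to 4.89 in cultures of either kind. In tissue of this sort, fewer cells of a type and less RNA per cell cannot be told apart.

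Respiratory chain transcripts were lower in primary tumours than in osteoblasts for 35 of 88 genes and higher for none. Complex I held the most of them, with 19 of 35 genes lower at a median log2 difference of -0.47, while the 8 assembly factors had a larger median (-0.56) and share (5 of 8). Calls rest on limma with an adjusted p under 0.05, corrected by Benjamini-Hochberg over all 12887 genes tested. In the same comparison 25.3% of all genes were called lower and 17.4% higher, so 39.77% lower among the members stood beside a sizeable background. The members' median difference was -0.35 on the log2 scale, against -0.07 over all genes. Of the falls 9 reached 2-fold, as did 11.9% of all genes. At an unadjusted p under 0.05 limma gave 43 of the 88 genes lower and 1 higher. The share of all genes at that threshold is not given here. Of the 44 members at or above the members' median brightness 22.7% were called lower, against 25.0% of all 904 genes that bright, so among bright genes the members' share was near the background. In the other complexes the falls were 2 of 4 complex II genes (median -0.55), 3 of 8 in complex III (-0.42), 3 of 16 in complex IV (-0.18) and 3 of 17 in complex V (-0.14).

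**Figure D1:**
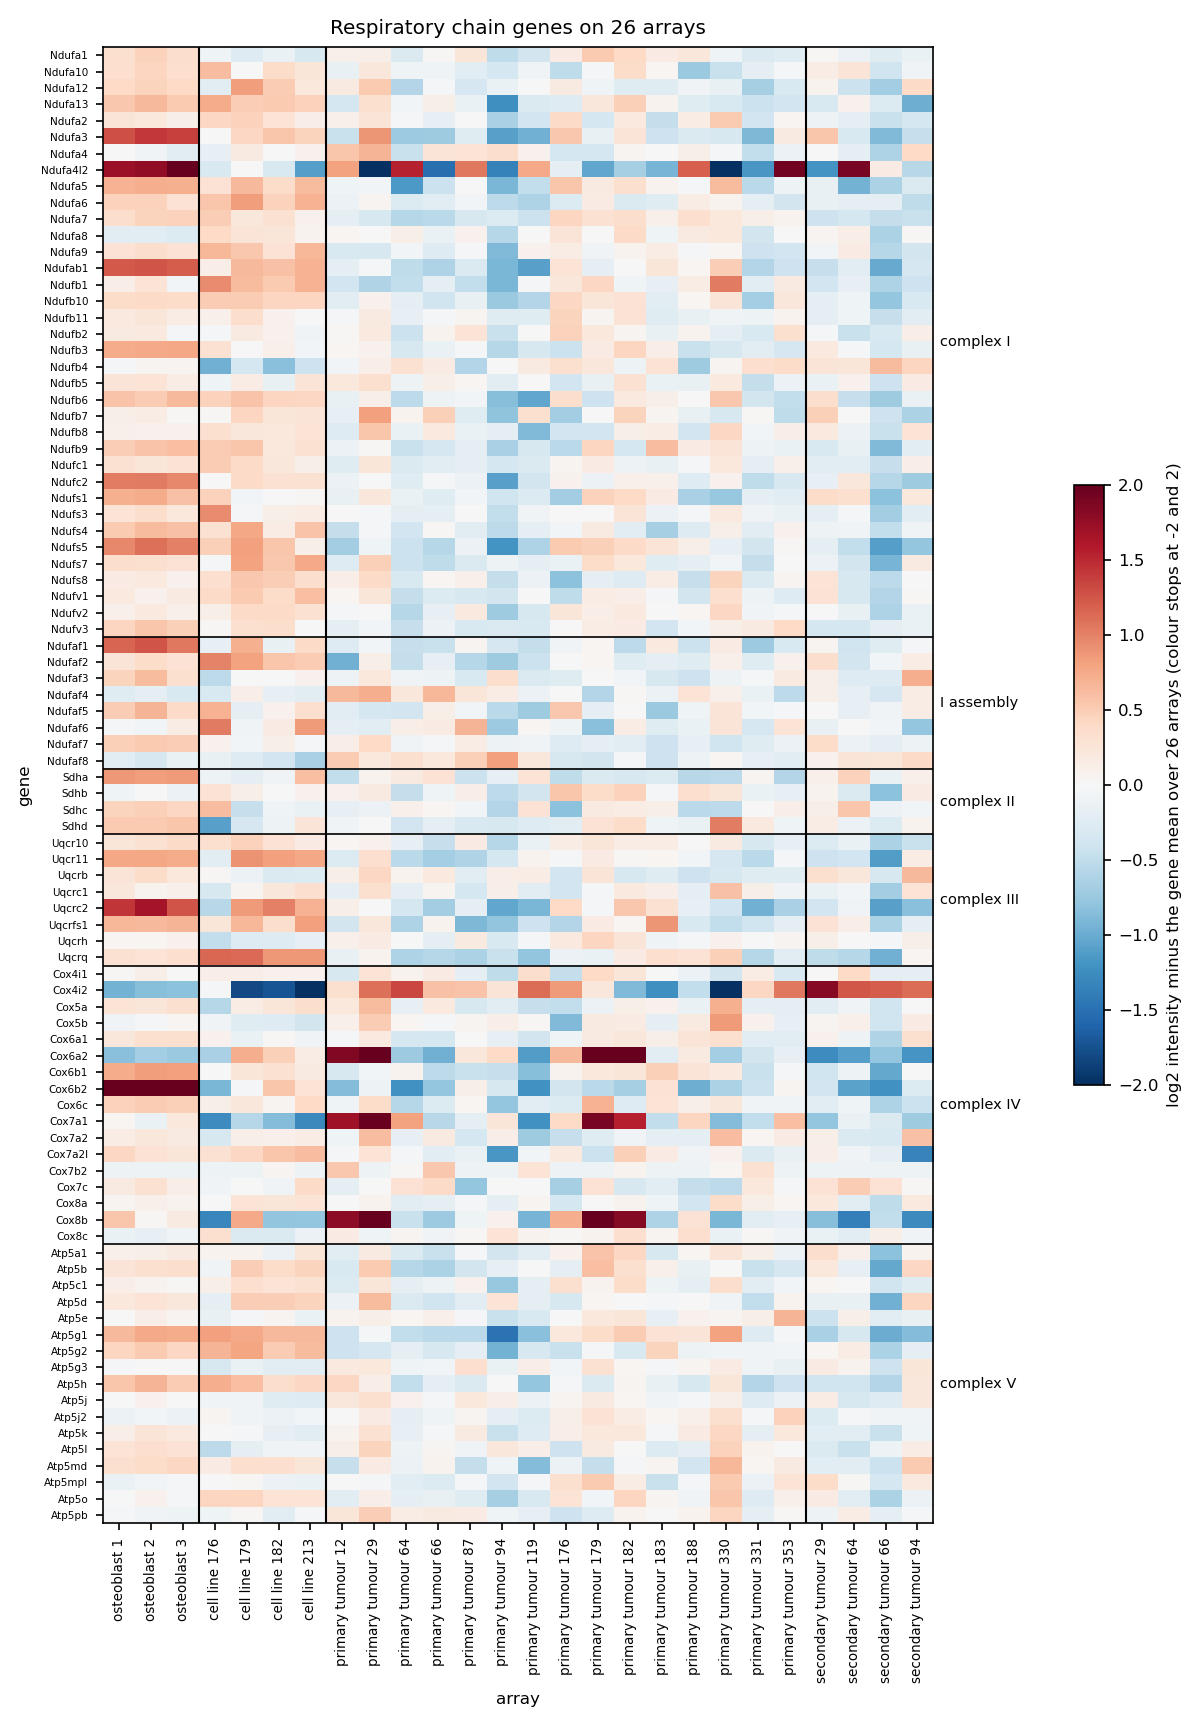
Relative level of each of the 90 genes (rows, grouped by complex) on each of the 26 arrays (columns, grouped by sample type), as log2 intensity minus the gene's mean over all arrays, with the colour scale ending at 2 units either way. Most complex I rows are above their mean in the 3 osteoblast cultures and the 4 lines, and the rows of the muscle isoforms vary among the 15 primary tumours.

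Scaling the arrays to a common distribution changed this picture in part. With quantile normalization 16 genes were lower and 6 higher in primary tumours, beside 19.8% and 19.1% of all genes (27.27% of calls higher, against 0.0% with the values as deposited), and the members' median was -0.13 beside 0.01 over all genes. The medians stayed below 0 for complexes I (-0.18), II (-0.23) and III (-0.17) and for the assembly factors (-0.42), and turned positive for complex IV (0.01) and complex V (0.13). Scaling to a common 75th percentile gave 27 lower and 0 higher, beside 21.3% and 22.4% of all genes. The difference was seen with the primary tumours of either array set: 41 genes lower and 3 higher with set B tumours (25.6% and 22.0% of all genes), and 30 lower and 1 higher with set C tumours (27.3% and 16.0%). Because the osteoblasts form set A alone, array set and group cannot be told apart here. Leaving out osteoblast culture 2 reduced the calls to 22. The share of all genes called with an array left out is not given here or below, so such counts have no background. In all, 13 of the 35 genes were called in every alternative fit: Ndufa3, Ndufab1, Ndufb3, Ndufc2, Ndufs4, Ndufs5, Ndufaf1, Ndufaf7, Sdha, Uqcrc2, Uqcr11, Cox6b1 and Cox6b2. Here and below, this leaves aside the 2-fold rule and the test of every kept probe set. The share of all called genes kept in the same fits is not given, so counts of kept genes have no background.

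**Figure D2:**
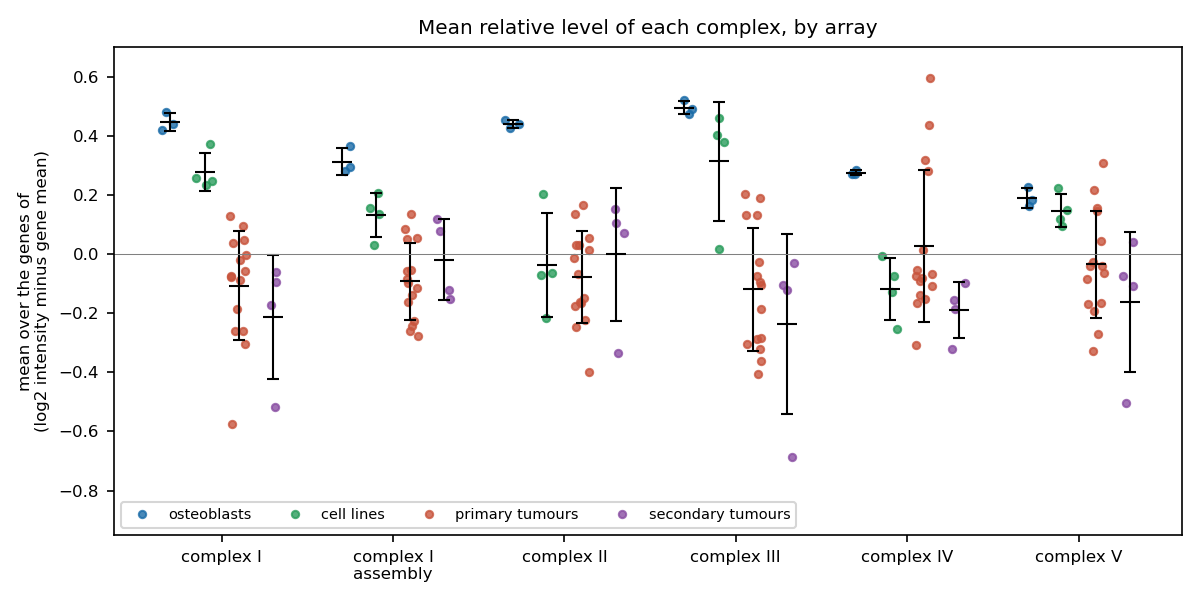
Mean relative level of the genes of each complex on each array as deposited (log2 intensity minus the gene's mean over 26 arrays), by sample type. Points are arrays and bars are group means ± SD; complex I lies at 0.42 to 0.48 in the 3 osteoblast cultures, 0.23 to 0.37 in the 4 lines, -0.57 to 0.13 in the 15 primary tumours and -0.52 to -0.06 in the 4 secondary tumours.

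Averaged over its genes on each array, complex I had a relative level of 0.45 ± 0.03 (SD, n = 3) in osteoblasts, 0.28 ± 0.06 (n = 4) in lines, -0.11 ± 0.18 (n = 15) in primary tumours and -0.21 ± 0.21 (n = 4) in secondary tumours, in log2 units around each gene's overall mean. Neither kind of tumour overlapped with either kind of culture. These levels are of arrays as deposited, whose medians also split both kinds of culture from both kinds of tumour without overlap. Such levels were not computed on scaled arrays. Complex III followed the same order, at 0.50 ± 0.02, 0.31 ± 0.20, -0.12 ± 0.21 and -0.24 ± 0.30, with lines and primary tumours overlapping. Complexes II and IV did not: the lines lay at -0.04 ± 0.18 for complex II and -0.12 ± 0.10 for complex IV, overlapping the primary tumours and below all 3 osteoblast cultures. Complex V spanned the least, from 0.19 ± 0.03 in osteoblasts to -0.16 ± 0.24 in secondary tumours. Within the primary tumours the median complex I level was -0.19 in set B and -0.01 in set C, and that of complex III -0.29 and -0.06.

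Among the genes filed under complex I, the largest falls against osteoblasts were those of Ndufa4l2, Ndufa3, Ndufab1, Ndufc2 and Ndufs5. Ndufa4l2 is counted there by its symbol, as is its paralogue Ndufa4. Ndufab1 is the mitochondrial acyl carrier protein, which also serves fatty acid synthesis. Its log2 level was 10.42, 10.45 and 10.41 in the osteoblast cultures, 9.32, 9.84, 9.77 and 9.89 in lines 176, 179, 182 and 213, and 8.73, 8.98, 8.18 and 8.85 in secondary tumours 29, 64, 66 and 94. The primary tumours had a lowest, median and highest level of 8.10, 9.01 and 9.68. Every tumour lay below every osteoblast culture, and the difference was -1.48 (SE 0.24, adjusted p = 2.67e-05) for primary and -1.74 (SE 0.29, adjusted p = 6.94e-05) for secondary tumours.

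Ndufs5, an accessory subunit of complex I, behaved alike. It stood at 10.10, 10.25 and 10.15 in osteoblasts, 9.63, 9.96, 9.70 and 9.27 in the lines and 8.95, 8.65, 8.05 and 8.36 in the secondary tumours. The 15 primary tumours had a lowest, median and highest level of 7.96, 9.03 and 9.66. No tumour reached the osteoblast range, with differences of -1.19 (SE 0.26, adjusted p = 0.000785) for primary and -1.66 (SE 0.32, adjusted p = 0.000278) for secondary tumours. The lines lay between osteoblasts and the tumour medians, and their difference from osteoblasts was -0.53 (SE 0.32, adjusted p = 0.279), which is not past the threshold.

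The promoter of Ndufs5 is shown as a case of a complex I gene with a site for NRF1, the nuclear factor known to regulate many respiratory genes. The stretch runs from 250 bases before to 50 after the RefSeq start site on the minus strand of chr4:123718137-123718436 (GRCm38.p6), with capitals marking the NRF1 match (GCGCA and GCGC parted by any 1 base, from base -98) and a MyoD E-box (CAGCTG, from base -132).
Ndufs5: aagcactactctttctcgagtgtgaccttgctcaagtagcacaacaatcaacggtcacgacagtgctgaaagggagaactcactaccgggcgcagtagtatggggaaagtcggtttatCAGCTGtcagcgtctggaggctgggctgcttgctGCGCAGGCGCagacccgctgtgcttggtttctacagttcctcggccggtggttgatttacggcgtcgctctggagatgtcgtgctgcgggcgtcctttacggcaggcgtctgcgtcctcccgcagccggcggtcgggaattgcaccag
Both strands were searched. Of the 74 members with a RefSeq promoter, 17 (23.0%) held the NRF1 motif, against 5.19% of all 27025 promoters. The motif of GABPA, CCGGAAG, was found in 19 members (25.7%, against 9.93%) and that of YY1, AANATGGCG, in 10 (13.5%, against 2.76%). The ERR motif TNAAGGTCA was in 3 members (4.05%, against 1.43%). The NRF1 motif was held by 7 of 29 members called lower in primary tumours and by 9 of 43 tested members not called lower. A match is a run of letters in this window and was not tested as a binding site.

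Ndufa3 and Ndufc2, both accessory subunits, separated tumours from osteoblasts as fully. The Ndufa3 level was 11.30, 11.43 and 11.39 in osteoblasts, 10.03, 10.43, 10.57 and 10.46 in lines and 10.57, 9.71, 9.14 and 9.55 in secondary tumours, and 8.93, 9.69 and 10.90 at the lowest, median and highest primary tumour. Its difference was -1.65 (SE 0.31, adjusted p = 0.000148) in primary and -1.63 (SE 0.37, adjusted p = 0.00164) in secondary tumours. Of its other probe sets, one fell too, by 1.91 (adjusted p = 8.97e-05) in primary tumours, and one was 0.57 higher (adjusted p = 0.0419). Ndufc2 was 11.00, 11.01 and 10.94 in osteoblasts, 9.99, 10.37, 10.28 and 10.28 in lines, 9.81, 10.20, 9.41 and 9.27 in secondary tumours and 8.89, 9.85 and 10.08 at the lowest, median and highest primary tumour. It fell in primary tumours by 1.19 (adjusted p = 2.27e-05) and in secondary tumours by 1.31 (adjusted p = 0.000119).

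Ndufa4l2, a paralogue of Ndufa4 known to be induced in hypoxia, had the widest spread of all members over the primary tumours (SD 1.39). Its level was 10.88, 10.94 and 11.18 in osteoblasts, 8.86, 9.16, 8.87 and 8.06 in the lines, 7.97, 11.06, 9.33 and 8.61 in secondary tumours, and 6.84, 8.51 and 11.10 at the lowest, median and highest primary tumour. The highest primary tumour and secondary tumour 64 reached the osteoblast range, and no line did. The primary tumours differed from osteoblasts by -2.10 (SE 0.73, adjusted p = 0.0222), and this call was lost with quantile normalization, without the muscle-rich tumours, and without any single osteoblast culture. Neither the lines (adjusted p = 0.0848) nor the secondary tumours (adjusted p = 0.123) passed the test.

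The core subunits of complex I gave smaller differences. Ndufs1, which carries iron-sulphur clusters, was 9.60, 9.62 and 9.47 in osteoblasts and 8.13, 8.70 and 9.35 at the lowest, median and highest primary tumour, a difference of -0.85 (SE 0.23, adjusted p = 0.00487) that was lost with quantile normalization. Ndufv1, which binds NADH, was 9.64, 9.54 and 9.63 in osteoblasts and 8.94, 9.35 and 9.78 across primary tumours, and did not pass the test (-0.28, adjusted p = 0.189). Ndufs3, another core subunit, was called lower in secondary tumours alone among the tumours, by 0.56 (adjusted p = 0.0237). Without secondary tumour 66, osteoblast culture 1 or osteoblast culture 2 that call was lost, and so it was with quantile normalization.

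Of the complex I assembly factors, Ndufaf1 fell the most. It was 7.95, 8.04 and 7.84 in osteoblasts, 6.63, 7.50, 6.63 and 7.17 in lines, 6.84, 6.39, 6.54 and 6.75 in secondary tumours, and 6.06, 6.48 and 6.99 at the lowest, median and highest primary tumour. Osteoblasts stood above every other array, with differences of -1.40 (SE 0.18, adjusted p = 1.56e-06) in primary tumours, -1.31 (SE 0.22, adjusted p = 7.54e-05) in secondary tumours and -0.96 (SE 0.22, adjusted p = 0.00372) in lines. Ndufaf7, a methyltransferase that modifies a core subunit, differed by -0.60 (adjusted p = 0.000909) in primary tumours. Ndufaf2 differed by -0.57 (adjusted p = 0.0165) there, a call lost with quantile normalization, with 75th percentile scaling and without osteoblast culture 2 or 3. Ndufaf6 varied the most of the assembly factors among the primary tumours, with levels of 4.75, 5.50 and 6.27 at the lowest, median and highest, and differed from osteoblasts by -0.09 (adjusted p = 0.795).

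In complex II, which is also the succinate dehydrogenase of the citrate cycle, the flavoprotein Sdha was lower on every tumour and line than in osteoblasts. Its levels were 10.47, 10.43 and 10.45 in osteoblasts, 9.49, 9.39, 9.52 and 10.20 in lines, 9.69, 10.05, 9.47 and 9.69 in secondary tumours and 9.01, 9.30 and 9.88 at the lowest, median and highest primary tumour. The difference was -1.07 (SE 0.19, adjusted p = 7.74e-05) in primary tumours, -0.80 (SE 0.23, adjusted p = 0.0191) in lines and -0.72 (SE 0.23, adjusted p = 0.0167) in secondary tumours. The calls in lines and secondary tumours were lost with quantile normalization and when its probe sets were averaged. The call in secondary tumours was also lost without number 66, and that in lines without any 1 osteoblast culture or without line 176 or 179. The iron-sulphur subunit Sdhb gave no call, at 0.11 (adjusted p = 0.678) in primary tumours. Of the membrane anchors, Sdhc differed by -0.56 (adjusted p = 0.0329) in primary tumours, and Sdhd by -0.55 (adjusted p = 0.0535) in primary tumours and -0.85 (adjusted p = 0.0357) in lines. The calls of Sdhc and of Sdhd were each lost with either scaling and without any 1 osteoblast culture.

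Complex III gave a sharp contrast through Uqcrc2, a core protein of the complex. Its level was 10.30, 10.55 and 10.14 in osteoblasts, 8.32, 9.73, 9.89 and 9.58 in lines, 8.50, 8.81, 7.79 and 8.05 in secondary tumours and 7.84, 8.69 and 9.41 at the lowest, median and highest primary tumour. Primary and secondary tumours lay below all osteoblast cultures, by -1.72 (SE 0.31, adjusted p = 0.000102) and -2.04 (SE 0.38, adjusted p = 0.000203). A second probe set of the gene gave -1.42 and -1.51 in the same comparisons. The partner core protein Uqcrc1 was 10.19, 10.04 and 10.06 in osteoblasts and 9.59, 9.93 and 10.55 across primary tumours, with overlapping groups and no call (-0.14, adjusted p = 0.558). Uqcrfs1, the Rieske iron-sulphur protein, differed by -0.91 (SE 0.25, adjusted p = 0.00507) in primary tumours, a call lost with quantile normalization.

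Complex IV held the largest single difference of the whole set, in Cox6b2. This gene encodes an isoform of subunit VIb known from testis. Its log2 level was 8.38, 8.68 and 8.16 in osteoblasts, 3.92, 4.81, 5.40 and 5.12 in the lines, 4.46, 3.77, 3.64 and 4.57 in the secondary tumours and 3.64, 4.31 and 5.13 at the lowest, median and highest primary tumour. Every tumour and line lay far below all 3 osteoblast cultures. Primary tumours 119 and 64 and secondary tumour 66 lay at the floor, where only a bound is known. The fitted fold was 16.8 lower in primary tumours (SE 0.29 log2 units, adjusted p = 7.79e-11), 12.1 lower in lines (SE 0.35, adjusted p = 6.2e-08) and 19.6 lower in secondary tumours (SE 0.35, adjusted p = 1.82e-09). The 6 adipocyte markers that were tested fell in the same 3 comparisons, 6 of 6 in each, and their part in this result was not tested.

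The widely expressed counterpart Cox6b1, named after its values were seen, fell as well but less: -0.91 (SE 0.22, adjusted p = 0.00151) in primary and -1.19 (SE 0.26, adjusted p = 0.00114) in secondary tumours, and -0.62 (adjusted p = 0.112) in lines without a call. It was 12.20, 12.30 and 12.28 in osteoblasts, 11.46, 11.70, 11.76 and 11.63 in lines and 11.06, 11.35, 10.44 and 11.45 in secondary tumours, and 10.61, 11.41 and 11.93 at the lowest, median and highest primary tumour. Both promoters are given because the 2 genes code for forms of one subunit. They lie on the minus strand of chromosome 7, at chr7:30626065-30626364 and chr7:4753045-4753344 (RefSeq, GRCm38.p6), each from 250 bases before to 50 after the start site. Capitals mark motif matches.
Cox6b1: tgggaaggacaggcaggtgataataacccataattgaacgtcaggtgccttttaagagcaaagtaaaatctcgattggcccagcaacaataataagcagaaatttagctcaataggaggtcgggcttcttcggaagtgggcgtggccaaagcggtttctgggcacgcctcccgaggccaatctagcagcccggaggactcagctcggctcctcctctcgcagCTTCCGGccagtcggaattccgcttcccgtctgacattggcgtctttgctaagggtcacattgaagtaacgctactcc
Cox6b2: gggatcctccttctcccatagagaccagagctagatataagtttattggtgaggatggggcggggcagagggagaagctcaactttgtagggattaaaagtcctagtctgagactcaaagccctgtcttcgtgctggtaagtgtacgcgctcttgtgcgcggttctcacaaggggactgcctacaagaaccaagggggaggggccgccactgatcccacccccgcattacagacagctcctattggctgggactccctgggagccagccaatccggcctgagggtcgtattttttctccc
Cox6b1 held a GABPA match from base -28. Cox6b2 held no match to any of the 6 motifs searched (NRF1, GABPA, YY1, ERR, the MyoD E-box and the TATA box TATAAA).

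**Figure D3:**
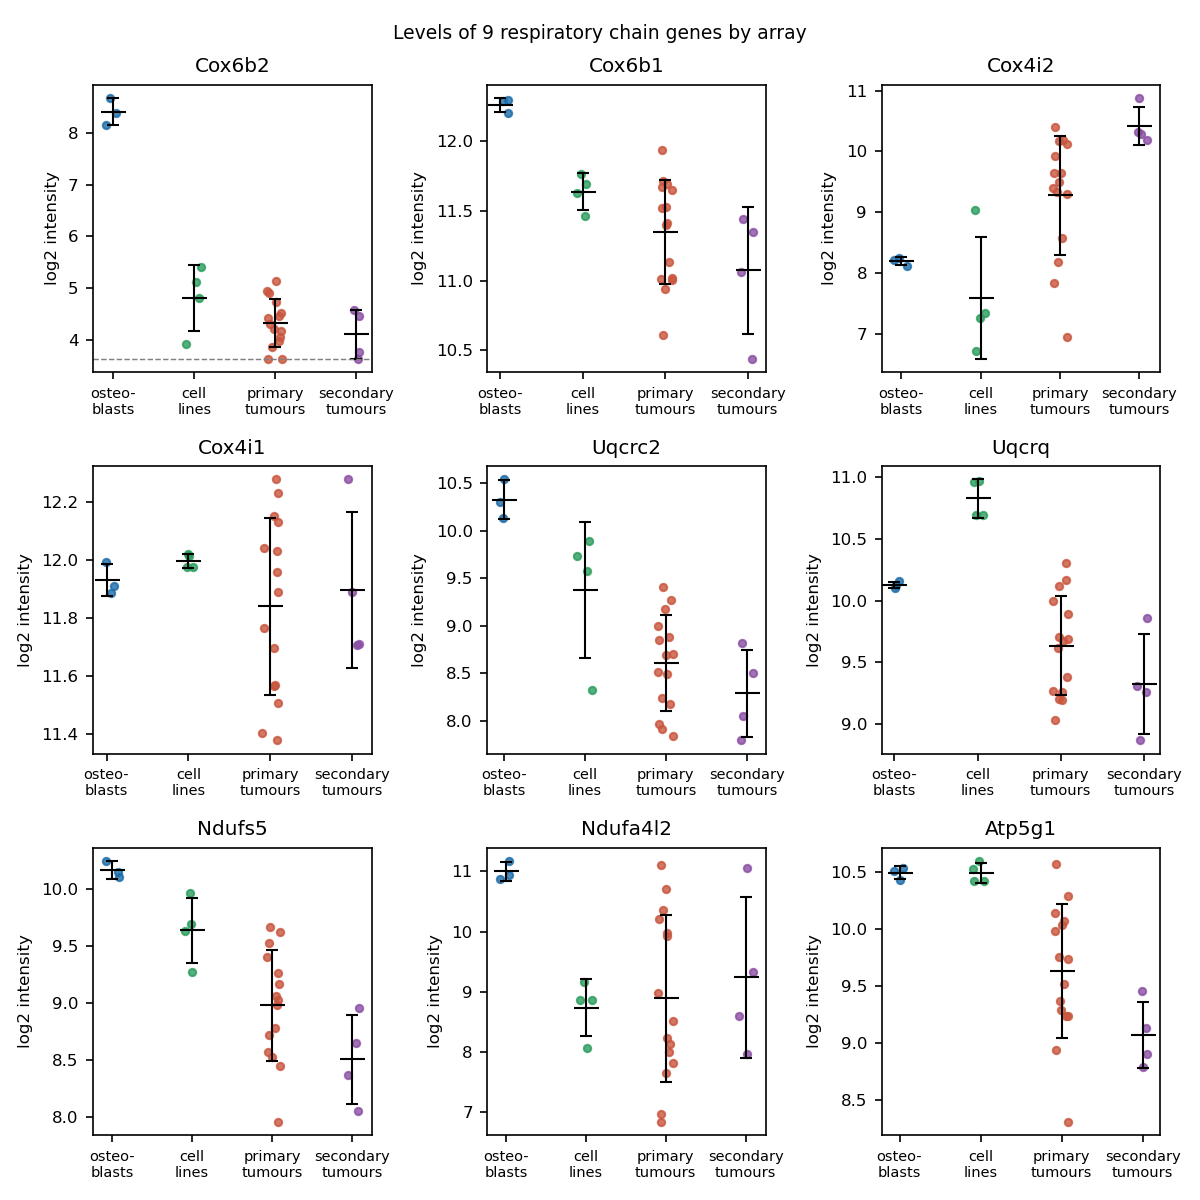
Log2 intensity of 9 members on every array, by sample type, with group means ± SD. Cox6b2 is high in the 3 osteoblast cultures only (8.16 to 8.68, with the dashed line at the floor of 3.64), Cox4i2 is highest in the secondary tumours (10.19 to 10.88), and Uqcrq is higher in the 4 lines (10.69 to 10.97) than in any tumour.

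Cox4i2, the lung isoform of subunit IV, was the only member called higher against osteoblasts in the model of all arrays as deposited, with the brightest probe set and no array weights. It stood at 8.13, 8.22 and 8.25 in osteoblasts, 9.04, 7.26, 7.35 and 6.73 in lines 176, 179, 182 and 213, 10.88, 10.32, 10.29 and 10.19 in secondary tumours, and 6.95, 9.49 and 10.41 at the lowest, median and highest primary tumour. The secondary tumours were above all cultures, and line 176 stood apart from the other lines. The difference from osteoblasts was 2.22 (SE 0.63, adjusted p = 0.0081) in secondary tumours and 1.08 (SE 0.52, adjusted p = 0.0984) in primary tumours. The latter was past the threshold in the primary tumours of set B alone (1.63, adjusted p = 0.0014), with quantile normalization (1.26, adjusted p = 0.0498) and with array weights. The main form Cox4i1 was 11.91, 11.99 and 11.89 in osteoblasts, 12.02, 12.01, 11.97 and 11.97 in lines and 11.38, 11.89 and 12.28 across primary tumours, with no call in any comparison. Of 7 endothelial markers, 7 were called higher in each kind of tumour than in osteoblasts. Their mean was 6.53 to 8.23 in tumours, 5.25 to 5.95 in osteoblasts and 4.51 to 4.75 in lines. It did not follow Cox4i2 throughout. Line 176, with Cox4i2 above all osteoblast cultures, had an endothelial mean of 4.65. The median endothelial mean was 7.23 in secondary and 7.30 in primary tumours. The part of endothelial cells in the Cox4i2 result was not tested.

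Of the remaining common subunits of complex IV, Cox6c was called lower, at -0.54 (SE 0.20, adjusted p = 0.0295) in primary and -0.83 (SE 0.24, adjusted p = 0.00885) in secondary tumours. It was 12.08, 12.13 and 12.09 in osteoblasts, 11.39, 11.52, 10.99 and 11.18 in secondary tumours and 10.84, 11.54 and 12.31 at the lowest, median and highest primary tumour. The secondary call was kept in every alternative fit, and the primary call was lost with either scaling, with the set C tumours alone, with only the 2 compared groups fitted and without any 1 osteoblast culture. Cox6c was named after its values were seen. Cox5a differed by -0.30 (adjusted p = 0.241), Cox5b by 0.10 (adjusted p = 0.716) and Cox7a2 by -0.24 (adjusted p = 0.38) in primary tumours, none of them called. Cox8c, another testis isoform, had the smallest spread of any member over the primary tumours (SD 0.15), between 7.52 and 7.99.

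In complex V, the genes that fell in primary tumours were Atp5g1, Atp5g2 and Atp5h. Atp5g1 and Atp5g2 code for the same proton-carrying subunit c, as does Atp5g3. Atp5g1 was 10.43, 10.54 and 10.52 in osteoblasts, 10.60, 10.53, 10.43 and 10.42 in lines, 9.13, 9.45, 8.79 and 8.90 in secondary tumours and 8.30, 9.74 and 10.58 at the lowest, median and highest primary tumour. The secondary tumours lay apart from both cultures, at -1.43 (SE 0.36, adjusted p = 0.00323), and the primary tumours overlapped with them, at -0.86 (SE 0.29, adjusted p = 0.0206). The primary call was lost with either scaling, with the set C tumours alone and without any 1 osteoblast culture. Atp5g2 differed by -0.68 (adjusted p = 0.00297) in primary tumours (lost with quantile normalization), and Atp5g3 by 0.06 (adjusted p = 0.699). Atp5a1 and Atp5b gave no call in primary tumours, at -0.16 (adjusted p = 0.535) and -0.42 (adjusted p = 0.162). Atp5j, a small peripheral subunit, was nearly constant over the primary tumours, from 11.43 to 12.00 with an SD of 0.15.

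The secondary tumours differed from osteoblasts much as the primary tumours did, and the 2 comparisons share the 3 osteoblast arrays. There were 34 genes lower and 1 higher, beside 19.4% of all genes lower and 15.8% higher. The members' median was -0.46 against -0.02 over all genes. The lower genes were 19 of 35 in complex I (median -0.58), 2 of 8 assembly factors, 1 of 4 in complex II, 4 of 8 in complex III (-0.72), 3 of 16 in complex IV and 5 of 17 in complex V. With quantile normalization 15 were lower and 2 higher (16.6% and 15.3% of all genes), and the complex V median moved from -0.23 to 0.02. Without secondary tumour 66 the calls were 22 in all, and without osteoblast culture 2 they were 23, both without a background. Among bright genes, 34.1% of 44 members and 18.3% of 904 genes were called lower.

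The cell lines stood closer to the osteoblasts over all members, but not in complex II. Here 7 of 88 genes were called lower and 0 higher, beside 11.2% of all genes lower and 3.82% higher, so the members' share was under the background. One of them, Cox6b2, fell by 2-fold or more, as did 6.64% of all genes. At an unadjusted p under 0.05 limma gave 17 lower and 2 higher, and the share of all genes at that threshold is not given here. The members' median was -0.10, as was that of all genes. The complex II median was -0.63 in lines, against -0.55 in primary and -0.45 in secondary tumours. That of complex IV was -0.22 in lines, against -0.18 in primary and -0.34 in secondary tumours. The calls were Cox6b2, Ndufaf1, Ndufa1, Ndufb3, Ndufc2, Sdha and Sdhd. Under every alternative fit the calls of Cox6b2 and Ndufaf1 were kept, without a share of all called genes to set beside them. The other 5 lost their call with quantile normalization, among them Ndufc2 (-0.50), Sdha (-0.50) and Sdhd (-0.54), and genes not called as deposited became called higher, Uqcrq (1.01) and Cox8a (0.55) among them. In all, with quantile normalization 4 genes were higher and 2 lower, beside 5.89% and 6.33% of all genes (66.67% of calls higher, against 0.0% as deposited) with a median of 0.20, and with 75th percentile scaling 2 were higher and 3 lower, beside 8.02% and 7.66% of all genes, with a median of 0.08. Leaving out any 1 osteoblast culture left 2 calls, and leaving out line 176 or line 179 left 3. The share of all genes called in those fits is not given, so a loss particular to these genes cannot be read from them. Set A holds no line and set C no osteoblast, so array set and group cannot be told apart.

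**Figure D4:**
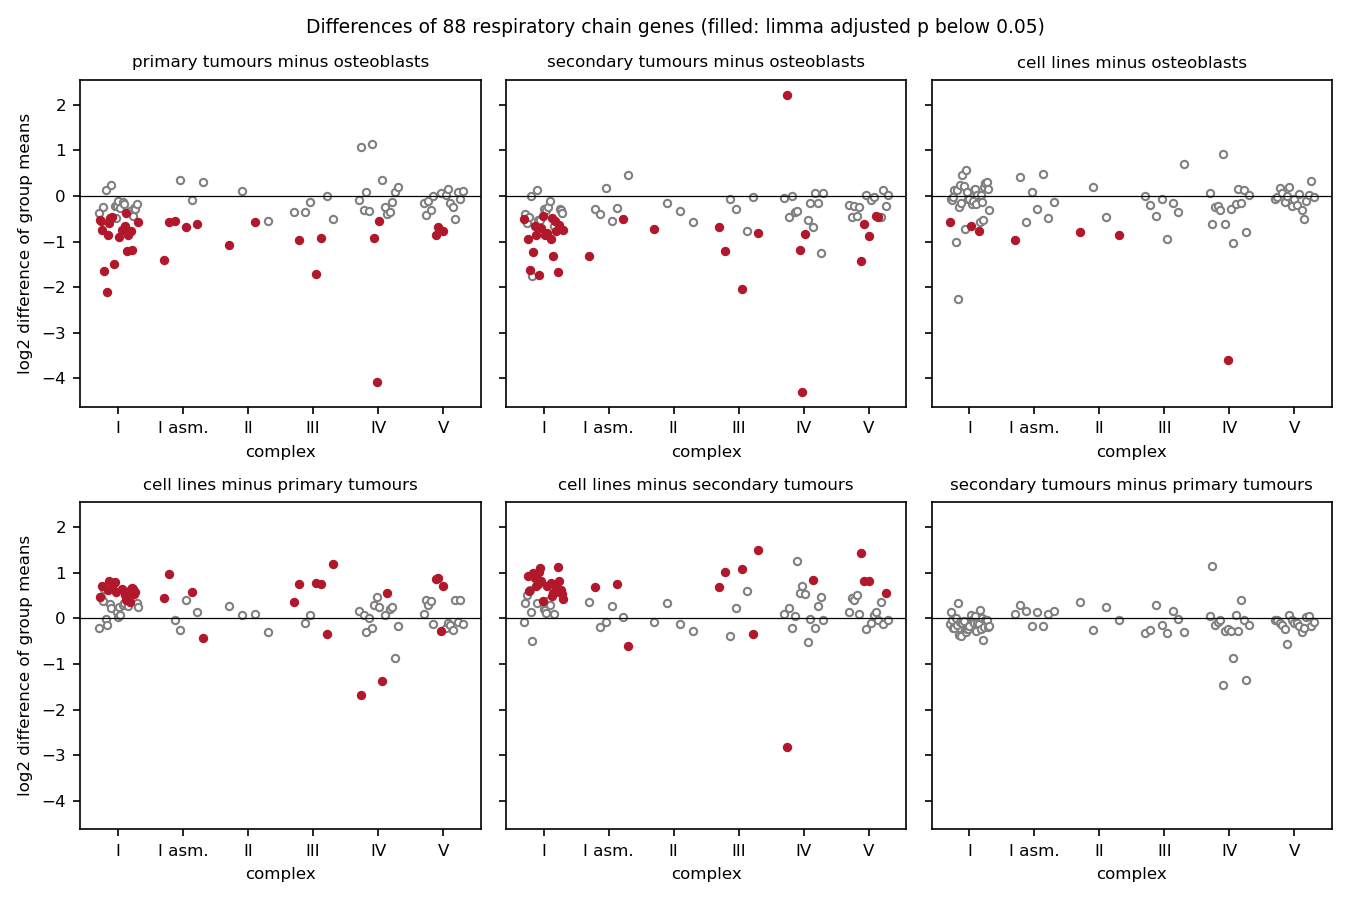
Log2 difference of each of the 88 tested genes in the 6 comparisons between groups, by complex. Filled points passed the test at an adjusted p under 0.05; against osteoblasts most filled points lie below 0, and in the lines against either kind of tumour most lie above 0, with none filled for secondary against primary tumours.

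Against primary tumours, the cell lines carried higher levels of complex I and complex III transcripts. Of 88 genes 30 were higher and 5 lower, beside 17.5% of all genes higher and 20.1% lower. The members' median was 0.29 and that of all genes -0.03. Complex I had 18 of 35 genes higher and none lower (median 0.44), and complex III 5 of 8 higher and 1 lower (0.56). Complex II had 0 calls by limma and 0 at an unadjusted p under 0.05 (median 0.09). Complexes IV (1 higher, 2 lower, median 0.06) and V (3 higher, 1 lower, 0.09) moved little, and the complex V median was -0.05 against set C tumours alone. The counts were 31 higher and 4 lower with quantile normalization (21.5% and 15.8% of all genes) and 36 and 2 with 75th percentile scaling (21.3% and 16.8%). One gene rose by 2-fold or more, Uqcrq, beside 4.72% of all genes. Among bright genes, 18.2% of 44 members and 13.1% of 904 genes were called higher.

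These differences were smaller within 1 array set. Against the 8 primary tumours of set C, the set that also holds the lines, 19 genes were higher and 2 lower (background 16.2% higher and 14.9% lower). Against the 7 tumours of set B, 39 were higher and 7 lower (19.6% and 27.9%). With array set as a block 14 of the 88 genes were higher and 1 lower, beside 15.2% and 14.8% of all genes. The members' share higher was then near the background and their share lower under it. The members' median was 0.25, against 0.02 over all genes. Without line 213 the calls fell to 23, without a share of all genes to set beside them. In every alternative fit 5 genes kept their call, a count without a background: Uqcrq, Ndufa6, Ndufaf2, Atp5g2 and Atp5h.

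Uqcrq is a small subunit of complex III near the ubiquinone site. Its level was 10.97, 10.96, 10.70 and 10.69 in lines 176, 179, 182 and 213, 10.13, 10.11 and 10.16 in osteoblasts, 9.31, 9.26, 8.87 and 9.86 in secondary tumours, and 9.03, 9.68 and 10.30 at the lowest, median and highest primary tumour. Every line lay above every other array. The lines exceeded primary tumours by 1.20 (SE 0.20, adjusted p = 6.6e-05) and secondary tumours by 1.5 (SE 0.25, adjusted p = 0.000132).

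Ndufa6, an accessory subunit of complex I, was 10.56, 10.84, 10.45 and 10.70 in the lines and 9.85, 9.81, 9.81 and 9.50 in secondary tumours, with 9.38, 9.77 and 10.16 at the lowest, median and highest primary tumour. The lines overlapped with neither kind of tumour, and lay above them by 0.82 (SE 0.12, adjusted p = 2.12e-05) and 0.90 (SE 0.16, adjusted p = 0.000204). The osteoblast levels of 10.45, 10.46 and 10.28 reached the lowest line. Ndufaf2, an assembly factor, was 9.14, 8.96, 8.71 and 8.66 in the lines, 8.51, 7.79, 8.10 and 8.30 in secondary tumours and 7.18, 7.91 and 8.27 across primary tumours. Its difference was 0.98 (SE 0.17, adjusted p = 8.02e-05) from primary tumours and 0.69 (SE 0.21, adjusted p = 0.0142) from secondary tumours, the second lost with array set as a block. Atp5g2 rose by 0.87 over primary tumours (adjusted p = 0.000137) and 0.81 over secondary tumours (adjusted p = 0.00331), the latter also lost with that block.

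Other higher calls in the lines differed in whether they held against the array set. Atp5g1 (0.86, adjusted p = 0.012), Ndufab1 (0.76, adjusted p = 0.00707), Ndufs5 (0.66, adjusted p = 0.0287), Uqcrc2 (0.77, adjusted p = 0.0311) and Uqcrfs1 (0.76, adjusted p = 0.00966) were called against all primary tumours and lost the call with array set as a block, at 0.45, 0.53, 0.34, 0.62 and 0.63 in that order (adjusted p from 0.0604 to 0.227). With the primary tumours of set C alone, where the differences are the same, Atp5g1 (adjusted p = 0.042), Ndufab1 (adjusted p = 0.0419) and Uqcrfs1 (adjusted p = 0.0456) were called and Ndufs5 and Uqcrc2 were not. The second probe set of Uqcrc2 gave 0.15 (adjusted p = 0.539). Ndufb1 (0.80, adjusted p = 0.00518) and Ndufv1 (0.59, adjusted p = 0.00352) kept theirs with that block, at 0.51 and 0.55. The 5 genes called lower in lines were Cox4i2, Cox7a1, Ndufaf8, Uqcrh and Atp5g3. Cox4i2 fell by 1.68 (SE 0.47, adjusted p = 0.00647), and by 1.20 without a call (adjusted p = 0.0594) with array set as a block. Ndufaf8 and Uqcrh each had a second probe set that differed in direction, at 1.42 and 0.12. Atp5g3 fell by 0.27 (adjusted p = 0.0478), a call lost with either scaling.

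Against secondary tumours the lines were higher for 33 genes and lower for 3, beside 12.7% of all genes higher and 17.6% lower, with medians of 0.38 for the members and -0.07 for all genes. Complex I held 22 of the rises (median 0.58), and complex III 4 (0.65). At least 2-fold rises numbered 7 (4.77% of all genes), among them Uqcrq, Atp5g1 (1.43, adjusted p = 0.00233), Ndufs5 (1.13, adjusted p = 0.00537), Ndufb1 (1.10, adjusted p = 0.00387) and Ndufab1 (1.02, adjusted p = 0.00612). The lower genes were Ndufaf8, Uqcrh and Cox4i2, the last at -2.82 (SE 0.58, adjusted p = 0.000975). The lines are in set C and the secondary tumours in set B, so the sets can be bridged only through the primary tumours. With array set as a block 2 genes kept a call, Uqcrq and Ndufa6, at an unmoved direction of the members' median (0.25). The share of all genes called fell from 30.3% to 9.45% (4.26% higher and 5.19% lower). The members' share higher was then under that of all genes. Without secondary tumour 66 there were 23 calls, again without a background. In both comparisons of lines with tumours, all 7 endothelial markers and nearly all of the 10 macrophage markers fell (10 against primary and 9 against secondary tumours), with C1qc at the floor in 3 of 4 lines. The part of these cells in the differences of the respiratory chain genes was not tested.

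Secondary tumours did not differ from primary tumours in any member by limma, with 0 of 88 calls where 0.00776% of all genes were called. The unadjusted p was under 0.05 for 9 members (6 lower, 3 higher), without a share of all genes to set beside them. The members' median was -0.11, against 0.04 over all genes. With tumour number as a block, pairing each secondary tumour with its own primary, the count was 0 as well. Against the set C primary tumours alone, an array set that holds no secondary tumour, 8 were lower and 3 higher (2.96% and 7.43% of all genes), and against the set B tumours there were 0.

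The 4 pairs did not move together. Over the 90 genes the median log2 difference of the secondary tumour from its own primary was -0.16 for number 29, 0.12 for number 64, -0.37 for number 66 and 0.39 for number 94, while the medians over all genes were -0.03, 0.01, -0.05 and 0.05. Number 66 was lower in 75 of 90 genes and number 94 higher in 79. The cell lines lay at 0.11 (176), 0.23 (179) and 0.05 (182) relative to the primary tumour of their number. A pair has no replicate, so these are descriptions of single arrays.

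The muscle isoforms of complex IV were the most variable genes of their complex among the primary tumours, and they followed skeletal muscle markers. Cox6a2, Cox7a1 and Cox8b code for forms of subunits VIa, VIIa and VIII made in heart and skeletal muscle. Cox6a2 ranged over 6.35, 7.65 and 9.81 (lowest, median, highest) in primary tumours, Cox7a1 over 4.66, 6.28 and 7.86 and Cox8b over 5.53, 6.37 and 8.80. In secondary tumours 29, 64, 66 and 94 they were 6.21, 6.37, 6.69 and 6.29, then 5.11, 5.75, 5.59 and 5.16, then 5.61, 5.09, 5.97 and 5.18 in that order of genes. All 4 secondary tumours lay below the primary median of each gene.

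Over the 15 primary tumours, the level of each isoform was compared with the mean of 15 skeletal muscle markers such as Acta1, Mylpf and Ckm. Pearson's r was 0.92 for Cox6a2, 0.91 for Cox7a1 and 0.93 for Cox8b, and Spearman's rho was 0.92, 0.88 and 0.96. In a two-sided permutation test with 100000 resamples, adjusted by Benjamini-Hochberg over the 90 genes, p was 0.00045, 0.0006 and 0.00045 for r and 0.00135, 0.0024 and 0.0009 for rho. The smallest p these resamples can give before adjustment is 1e-05. No other member passed, the next being Atp5j (r = 0.69, adjusted p = 0.107), and the median r of the other 87 was 0.13.

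The relation did not rest on the extreme tumours or on 1 array set. Without the 2 tumours farthest from the median marker level (29 and 179) r was 0.88, 0.87 and 0.91 for Cox6a2, Cox7a1 and Cox8b. It was 0.94, 0.90 and 0.90 over the 7 tumours of set B and 0.96, 0.95 and 0.99 over the 8 of set C. The marker mean ran from 4.71 to 10.78 in primary tumours, with a median of 7.66, and was 4.82 to 4.94 in osteoblasts, 4.55 to 4.96 in secondary tumours and 4.77 to 8.73 in the lines. Line 179 had the highest marker mean among lines and also the highest Cox6a2 (8.20) and Cox8b (7.22).

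**Figure D5:**
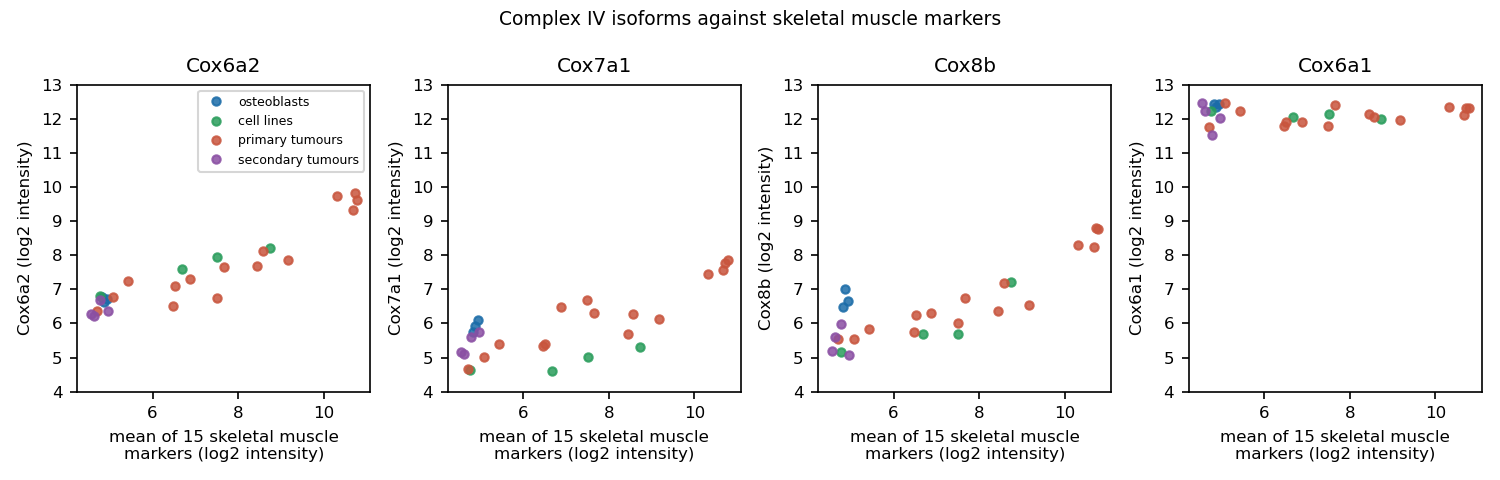
Log2 intensity of the muscle isoforms Cox6a2, Cox7a1 and Cox8b and of the widely expressed form Cox6a1 against the mean log2 intensity of 15 skeletal muscle markers, 1 point per array for all 26 arrays. The isoforms rise with the markers across the 15 primary tumours (r from 0.91 to 0.93), and Cox6a1 stays between 11.52 and 12.45 on every array.

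The pairs of secondary and primary tumours differed in these isoforms. Secondary tumour 29, whose primary tumour was 1 of the 2 farthest from the median marker level, differed from its own primary by -3.41 in Cox6a2, -2.75 in Cox7a1 and -3.16 in Cox8b. Secondary tumour 66 changed by 0.18, 0.26 and 0.24 in the same genes. None of the 3 isoforms was called between secondary tumours and all primary tumours. Against the set C primary tumours alone, a set without secondary tumours, Cox6a2 was called lower (-1.58, limma adjusted p = 0.0457). Cox8b (-1.41, adjusted p = 0.0875) and Cox7a1 (-0.86, adjusted p = 0.178) were not called there. Cox7a1 was called lower in the lines than in primary tumours, at -1.38 (SE 0.45, adjusted p = 0.018). That call was lost among the muscle-poor primary tumours (-0.77, adjusted p = 0.0694), with array set as a block (-1.38, adjusted p = 0.0507), and without line 176 or line 213. Against the set C primary tumours alone it was called, at -1.38 (adjusted p = 0.0153). The widely expressed counterparts showed no such spread: Cox6a1 was 11.76, 12.10 and 12.45, Cox7a2 11.02, 11.65 and 12.35 and Cox8a 11.13, 11.51 and 11.87 at the lowest, median and highest primary tumour.

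The promoters of a widely expressed form of each type and of a muscle isoform are set side by side, all on the minus strand of GRCm38.p6 and from 250 bases before to 50 after the RefSeq start site: Cox6a1 (chr5:115348909-115349208), Cox8a (chr19:7217567-7217866) and Cox8b (chr7:140900397-140900696). Capitals mark motif matches.
Cox6a1: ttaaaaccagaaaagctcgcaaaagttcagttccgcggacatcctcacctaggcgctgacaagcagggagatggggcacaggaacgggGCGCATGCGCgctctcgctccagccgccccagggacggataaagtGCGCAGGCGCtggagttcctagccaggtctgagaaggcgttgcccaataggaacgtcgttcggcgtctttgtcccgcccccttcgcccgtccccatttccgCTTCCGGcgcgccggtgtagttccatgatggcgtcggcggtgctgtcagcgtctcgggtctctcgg
Cox8a: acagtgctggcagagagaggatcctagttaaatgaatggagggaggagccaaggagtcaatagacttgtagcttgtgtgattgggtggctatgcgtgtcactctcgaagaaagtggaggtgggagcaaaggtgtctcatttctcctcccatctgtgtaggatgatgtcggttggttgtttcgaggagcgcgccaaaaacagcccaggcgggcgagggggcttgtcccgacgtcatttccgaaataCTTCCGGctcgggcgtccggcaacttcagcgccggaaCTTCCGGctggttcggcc
Cox8b: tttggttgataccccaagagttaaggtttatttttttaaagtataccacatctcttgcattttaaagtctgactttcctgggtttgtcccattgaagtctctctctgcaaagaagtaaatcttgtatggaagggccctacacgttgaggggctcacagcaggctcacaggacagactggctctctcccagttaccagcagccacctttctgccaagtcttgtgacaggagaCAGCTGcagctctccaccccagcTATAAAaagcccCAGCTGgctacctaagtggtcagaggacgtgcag
Cox6a1 held NRF1 matches from bases -162 and -117 and a GABPA match from base -16, and Cox8a held GABPA matches from bases -5 and 33. Cox8b held neither. It held the E-box CAGCTG, a sequence that muscle regulators of the MyoD family can bind, from bases -19 and 17, and a TATA box match from base 5. Over all promoters 18.3% held this E-box and 15.7% TATAAA, against 6 (8.11%) and 8 (10.8%) of the 74 members.

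Apart from such isoforms, the members varied little within the primary tumours. Their median SD over the 15 tumours was 0.318 log2 units, against 0.368 for all genes, and 82 of 90 had an SD under 0.5. The 5 with an SD over 0.9 were Ndufa4l2 (1.39), Cox6a2 (1.21), Cox8b (1.16), Cox7a1 (1.04) and Cox4i2 (0.98). Each is an isoform or paralogue of a widely expressed subunit.

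Genes that serve the respiratory chain were counted in lists chosen with earlier results of these data known. Of 34 assembly factors outside the set, 18 were lower and 1 higher in primary tumours than in osteoblasts (median -0.58), beside 25.3% of all genes lower and 17.4% higher, and 13 were higher and 0 lower in lines than in primary tumours (0.26), beside 17.5% of all genes higher and 20.1% lower. The same shares stand behind each list below. Tmem126b, needed to build complex I, differed by -2.43 and the ATP synthase factor Atpaf2 by -1.47 in primary tumours. Atpaf2 was 1.00 higher and Coa3, a complex IV factor, 1.05 higher in lines than in primary tumours. Of 15 citrate cycle and pyruvate dehydrogenase genes, 10 were lower and 1 higher in primary tumours (median -0.84), with citrate synthase, Cs, at -1.14 and Dlat, a subunit of pyruvate dehydrogenase, at -1.36, and Mdh2 at 0.45. In the lines 8 of the 15 were higher than in primary tumours, such as Dld (0.97) and fumarase, Fh1 (0.92).

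Of 16 electron carrier and exchange genes, 9 were lower and 1 higher in primary tumours than in osteoblasts. Etfb, which hands on electrons from fatty acid oxidation, differed by -1.49 and Coq3, of ubiquinone synthesis, by -1.43, while Coq5 of the same pathway was 0.74 higher. Of 14 glycolysis genes, 9 were lower and 0 higher in primary tumours by limma, led by Pfkl (-1.97), and with quantile normalization 3 were lower and 1 higher. The regulators of mitochondrial biogenesis gave 2 of 18 higher and 3 lower, under the shares of all genes. Ppargc1b, a coactivator, was 1.81 higher and Nrf1 0.38 higher in primary tumours, and the mitochondrial transcription factors Tfam and Tfb1m differed by -0.87 and -1.66. With quantile normalization the median difference from osteoblasts was -0.31 for the assembly factors, -0.54 for the citrate cycle, -0.44 for the carriers and -0.39 for glycolysis, and with 75th percentile scaling these 4 medians were below 0 too. None of the 13 genes encoded by mitochondrial DNA is named in the annotation, so their transcripts were not analysed here.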

How the data were processed

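RNA was extracted with Trizol and QIAGEN columns, copied from its poly(A) end, amplified by T7 polymerase into biotin-labelled cRNA and hybridised to 1-colour arrays, per the labels' protocols. The authors deposited 1 linear intensity for each of 45101 probe sets (64 of them controls). The summarising software, background correction and scaling are not stated in the labels. Arrays were used as deposited.

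Intensities under the 20th percentile of all values (12.5) were raised to it, and log2 was taken; a value at this floor of 3.64 is only a bound. The filter asked for 3 arrays above the median of all values (52.6) and left 27308 probe sets. Probe sets were named from the platform annotation with symbols updated through RefSeq: 34945 carried 1 symbol, 932 several and 9211 none. Of the 90 members' probe sets, 16 carry the suffix _s_at or _x_at and may read related sequences. The brightest kept probe set stood for its gene, and levels of different genes were not compared. One model of the 4 groups over all arrays was fitted with limma 3.58.1 in R 4.3.3 (lmFit, eBayes), and every adjusted p and SE of a gene is from limma. The number of arrays per group limits the precision. The scripts were tested on simulated data.

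Set C was told from the other arrays by the ratio of the bioB to bioC spiked controls (0.827 to 0.955, against 0.291 to 0.387), and set A from set B by the 5′ to 3′ ratio of the bioD control (0.640 to 0.671, against 0.347 to 0.448), each at the widest gap. Pairing was checked by correlating each sample's deviations from its group mean, over all tested genes, with those of the primary tumour of its number. Secondary tumours gave 0.45, 0.30, 0.22 and 0.64 (29, 64, 66, 94), each highest with its own primary, and were taken as paired.

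Named genes were the 5 largest called rises and falls of each comparison, complex II, the muscle and other complex IV isoforms, core subunits, the extremes of spread in each complex, and genes at the floor on 13 or more of the arrays. Cox6b1, Cox6c, Atp5h and others in the lists of calls were added after their values were seen. The members, lists and tests were chosen with earlier results of these data known. Promoters and their motifs were read from RefSeq, build GRCm38.p6. Alternatives were the floor, the filter, quantile and 75th percentile scaling, the probe set rule, array weights and the samples fitted. Others were the array set, the tumour number as a block, the muscle-poor tumours and a 2-fold rule. Each osteoblast, line and secondary tumour array was also left out in turn, and single primary tumours were not.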

Additional observations from a re-analysis of the deposited data

Results flagged for a closer look

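In groups of 4, an array was taken as far from the others when its gap to the nearest exceeded Dixon's 95% critical value. This was met in 11 of 100 tests. Some of the tests share genes and some hold values at the floor, so the count cannot be set against a chance rate.

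Secondary tumour 66, the sample derived from a cell line, stood below the other secondary tumours in several means. Its mean relative level over all members was -0.45, against -0.10 to -0.05 in the others. Its complex II mean was -0.33 (others 0.07 to 0.15) and its complex III mean -0.69 (others -0.12 to -0.03). Its Ndufs1 level was 8.06, against 9.09 to 9.25. The Ndufa6 level of secondary tumour 94 was 9.50, against 9.81 to 9.85 in the others.

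Line 176 was apart in 3 genes. Cox7a2 was 11.41 (other lines 11.83 to 11.88), Cox8a 11.51 (11.76 to 11.79) and Ndufs1 9.35 (8.83 to 8.91). Line 213 had an Sdha level of 10.20, against 9.39 to 9.52, and line 179 a complex I mean of 0.37, against 0.23 to 0.26. Cox7b2 was 3.80 in line 182 and at the floor of 3.64 in the other lines.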

How the results depend on the processing

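Counts of called members changed with the processing as follows, in the order primary tumours, lines and secondary tumours against osteoblasts, then lines against primary and against secondary tumours. A 2-fold minimum left 9, 1, 12, 3 and 8. By this rule 11.9%, 6.64%, 10.8%, 7.03% and 8.4% of all genes were lower. In the same order 6.58%, 1.58%, 7.71%, 4.72% and 4.77% were higher. Quantile normalization left 22 for primary and 17 for secondary tumours against osteoblasts, where 38.9% and 31.9% of all genes were called. Array weights gave 62, 27 and 55 in the comparisons against osteoblasts, where 67.5%, 40.9% and 53.8% of all genes were called, and a fit of only the 2 compared groups gave 20 for lines against osteoblasts (26.3% of all genes). With array set as a block, lines gave 15 calls against primary and 2 against secondary tumours, where 30.0% and 9.45% of all genes were called. Against the set C primary tumours alone, lines gave 21 calls and secondary tumours 11, where 31.1% and 10.4% of all genes were called. Testing every kept probe set, an alternative chosen after seeing the data, gave 65, 12, 76, 64 and 72 calls among 162 probe sets. The share of all kept probe sets called in that fit is not given here, so these counts have no background. Leaving out each osteoblast, line and secondary tumour array in turn gave 22 to 37, 2 to 8, 22 to 38, 23 to 37 and 23 to 31 calls. It gave 0 for secondary against primary tumours. No primary tumour was left out in this way. The share of all genes called in these fits is not given here, so these counts have no background.

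The tumour number as a replicate block gave 11 calls (6 higher, 5 lower, beside 12.1% and 12.5% of all genes) for lines against primary tumours and 5 (2 higher, 3 lower, beside 3.91% and 4.59%) for lines against secondary tumours, so the members' share higher was under the background in both. It changed no count for secondary against primary tumours. The lines share only a number with a primary tumour: their deviations correlated at 0.04, 0.08 and 0.04 (176, 179, 182), and none was highest with its own.

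Directions reversed in a few genes. With the mean of a gene's probe sets, Ndufaf8 was 0.49 for lines against primary tumours, 0.48 against secondary tumours, -0.50 for primary and -0.49 for secondary tumours against osteoblasts, and Uqcrh was 0.0184 for lines against secondary tumours. Ndufaf8 was 0.13 there with the replicate block. Cox6a2 was 0.68 for lines against the muscle-poor primary tumours. The cause of these changes was not tested. Values of dim genes are limited by the floor.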

Other observations

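Probe sets of the same gene disagreed for some members. For Ndufs8, a core subunit of complex I, the brightest probe set was 0.54 higher in lines than in primary tumours and another was 0.84 lower (adjusted p = 0.0149 and 0.0117, limma over all kept probe sets), while its other probe sets were 0.58 to 0.77 higher. For Ndufaf8, an assembly factor, the brighter probe set was 0.44 lower (adjusted p = 0.0423) and the other 1.42 higher (adjusted p = 2.39e-05). Against osteoblasts the same 2 probe sets of Ndufaf8 were 0.31 higher (adjusted p = 0.193) and 1.31 lower (adjusted p = 0.000161) in primary tumours. Which of these probe sets reads the gene was not tested.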
